A study of Mus musculus with 3 samples.

Results

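Transcripts of 9 genes around the transcription factor LEF1 and its cofactor beta-catenin were read in thymocytes (T cells developing in the thymus) of 3 wild-type mice. The genes were taken by symbol: Lef1, Tcf7l1 and Tcf7l2 (TCF/LEF factors), Ctnnb1 (beta-catenin), Apc, Axin1 and Axin2 (its scaffolds), and Sox4 and Sox13 (SOX factors). All 9 were found among 19938 genes that the platform annotation names by a single symbol, each with 1 probe set. Affymetrix mouse gene arrays, which read a transcript with a set of short probes, gave the levels on a log2 scale. The mice, numbered 92, 103 and 106 in the labels, carry the genotype wt on a mixed FVB and C57BL6 background, and are the normal thymocytes of a study of invasive lymphomas in tPTEN-/- mice. Lymphoma arrays were not used here, so the data hold 1 group and no comparison between groups. For every sample the labels record 0.3 µg of RNA, an RNA integrity number of 3, which is low, and a disease state of T cell lymphoma that goes against the title and genotype. They give no age or sex.

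LEF1 and the TCF proteins bind the same short DNA sequence through a high mobility group box. Without Wnt signal, a complex built on the scaffold proteins APC and AXIN marks beta-catenin for destruction, and TCF/LEF factors sit on their sites with corepressors. When that complex is held in check, beta-catenin enters the nucleus, binds TCF/LEF factors and switches their targets on. SOX proteins carry a related box and can modulate this output. In the mouse thymus, LEF1 and its relative TCF1 (gene Tcf7) are needed for thymocytes to pass through their early stages. Tcf7 itself was not analysed here.

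RefSeq promoter windows (build GRCm38.p6) were matched for 7 of the 9 genes, in 12 windows of 250 bases that end just before a transcription start. The windows below are shown because Lef1 and Tcf7l2 have starts far apart, while each gene has 1 array level that cannot be assigned to a start. In human cells an internal LEF1 start gives a shorter protein without the part that binds beta-catenin. Axin2, a textbook target of beta-catenin, is shown beside them. Capitals mark a match to a motif that was searched for.
Lef1, start 1 of 4, chr3:131110047-131110296, plus strand: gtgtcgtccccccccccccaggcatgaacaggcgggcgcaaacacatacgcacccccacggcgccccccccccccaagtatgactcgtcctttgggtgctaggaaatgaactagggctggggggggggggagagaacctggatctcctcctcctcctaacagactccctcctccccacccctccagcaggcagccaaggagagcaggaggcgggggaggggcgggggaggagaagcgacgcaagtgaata
Lef1, start 4 of 4, chr3:131156044-131156293, plus strand: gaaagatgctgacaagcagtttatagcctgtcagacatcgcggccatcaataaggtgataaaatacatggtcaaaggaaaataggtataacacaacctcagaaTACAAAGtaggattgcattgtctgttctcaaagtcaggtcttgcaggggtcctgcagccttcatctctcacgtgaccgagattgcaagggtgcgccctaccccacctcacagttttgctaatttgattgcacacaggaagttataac
Tcf7l2, start 2 of 2, chr19:55895071-55895320, plus strand: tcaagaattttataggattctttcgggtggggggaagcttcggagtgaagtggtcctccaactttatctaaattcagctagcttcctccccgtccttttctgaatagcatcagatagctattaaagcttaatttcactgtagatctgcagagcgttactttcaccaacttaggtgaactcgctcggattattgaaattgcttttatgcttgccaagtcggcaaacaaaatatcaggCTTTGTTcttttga
Axin2, only start, chr11:108920099-108920348, plus strand: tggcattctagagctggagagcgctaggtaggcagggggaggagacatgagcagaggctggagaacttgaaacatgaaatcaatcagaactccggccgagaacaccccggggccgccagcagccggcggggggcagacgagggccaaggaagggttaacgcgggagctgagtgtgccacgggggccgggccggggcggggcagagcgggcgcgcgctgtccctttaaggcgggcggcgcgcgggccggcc

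The last Lef1 start lies 45997 bases downstream of the first, and the second Tcf7l2 start 153511 bases downstream of its first. Both sit in windows with less G and C (44.8% for Lef1, 40.8% for Tcf7l2) than those of the first starts (66.4% and 72.8%). The median over all 32851 mouse windows was 52.4%, and the Axin2 window had 69.2%. On both strands 5 motifs were searched. The TCF/LEF motif was CTTTGAT in its usual form, with the variant ending in A written CTTTGAA, the form with a shared SOX core written CTTTGTT and the last variant written CTTTGTA. The SOX motif was AACAATG. On the other strand the form CTTTGTT reads as AACAAAG, which is also a SOX motif. The TCF/LEF and SOX motifs are alike, so a match to another form need not be a match to TCF/LEF alone. The last Lef1 window held CTTTGTA on the minus strand (printed as TACAAAG), 147 bases before the start, a motif found in 3.2% of all windows. The second Tcf7l2 window held CTTTGTT on the plus strand, 14 bases before the start (5.03% of all windows), and the first Tcf7l2 window held AACAATG on the minus strand, 103 bases before it (3.29%). In the other 9 windows, Axin2 included, no match was found, and 17.6% of all windows held any of the 5 motifs. A match is a description of the sequence and was not tested for binding.

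The arrays had medians of 6.70, 6.71 and 6.72 for mice 92, 103 and 106. The array of mouse 92 stood apart: the inactive X chromosome RNA Xist was at 5.30 there, against 11.85 and 11.67 in mice 103 and 106. By Xist, mouse 92 reads as male and mice 103 and 106 as female, though the labels give no sex. A difference between mouse 92 and the others therefore cannot be told apart from sex. Averaged over the measured markers of each cell type, the deviation from the 3-mouse mean in mouse 92 was -1.07 for 11 neutrophil genes, -0.58 for 9 B cell genes, -0.54 for 5 erythroid genes, -0.34 for 10 macrophage and dendritic cell genes and -0.33 for 12 early progenitor genes. Of 11 thymocyte markers measured, 11 were above background, and their averages were 12.12, 11.97 and 12.06 in mice 92, 103 and 106. In such bulk RNA, fewer cells of a type and less RNA per cell cannot be told apart.

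All 9 genes read above background on every array. Background was set, array by array, at the 95th percentile of 1192 receptor genes of the nose (olfactory, vomeronasal and trace amine receptors); it lay between 5.92 and 6.10. Of all 19938 genes, 61.7% passed on the 3 arrays. At the stricter 99th percentile (6.69, 7.00 and 6.85), which 46.7% of all genes passed, 7 of the 9 genes passed and Tcf7l1 and Tcf7l2 did not. Probes differ in affinity, so a higher level of 1 gene than of another does not show more transcript, and the genes are not ranked.

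Among the TCF/LEF factors, Lef1 (probe set 10496091) had a log2 level of 11.99 in each of mice 92, 103 and 106, with a mean of 11.99 ± 0.0015 (SD, n = 3). It stood at least 5.89 above the background threshold of its array, and none of the receptor genes read higher (0 of 1192 on each array). Tcf7l2 (10464084), known as the main TCF factor of intestinal crypts, read 6.90, 6.77 and 6.90 in mice 92, 103 and 106, a mean of 6.85 ± 0.07 (SD, n = 3). Between 8 and 22 receptor genes read higher than Tcf7l2, depending on the array, and with the 99th percentile it was below background in mouse 103 alone. Tcf7l1 (10545458), which acts mostly as a repressor of TCF targets, read 6.36, 6.21 and 6.30 in the same order of mice (6.29 ± 0.07, SD, n = 3). It cleared the 95th percentile by 0.44, 0.11 and 0.30, and lay below the 99th on all 3 arrays. With 32 to 49 receptor genes reading higher, Tcf7l1 was the gene of the 9 least separated from background.

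**Figure D1:**
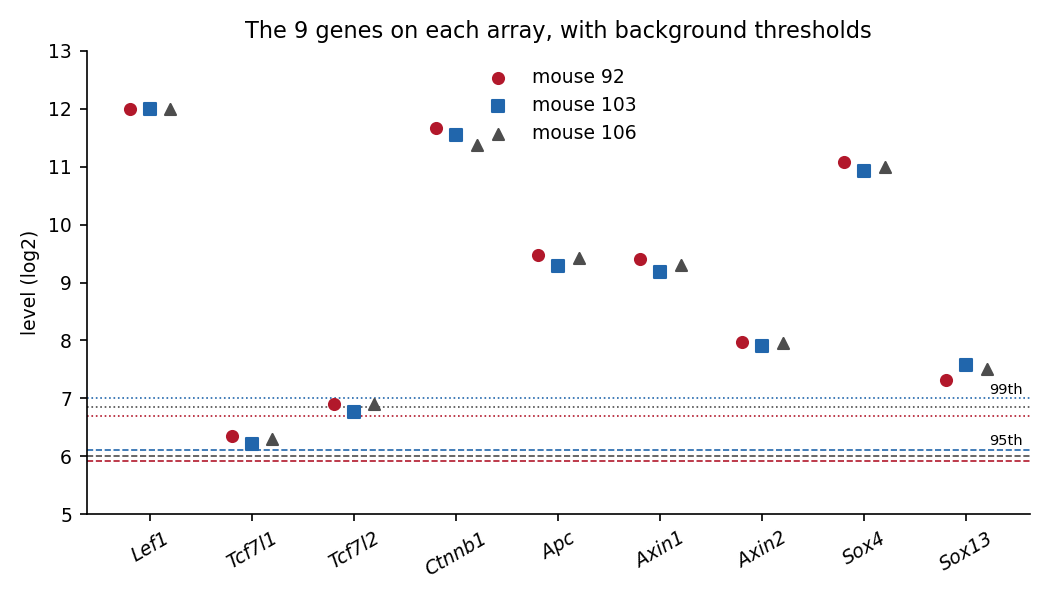
Log2 level of each of the 9 genes (x axis) on the arrays of mice 92 (circles), 103 (squares) and 106 (triangles). Dashed and dotted lines give the 95th and 99th percentile of the receptor genes on each array in the same colours. Tcf7l1 lies between both sets of lines, Tcf7l2 among the 99th percentile lines, and the other genes above both sets.

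Ctnnb1 (10590325), which encodes beta-catenin itself, read 11.67 in mouse 92, 11.54 in mouse 103 and 11.37 in mouse 106 (11.53 ± 0.15, SD, n = 3). Its range of 0.30, or 1.23-fold, was the widest among the 9 genes. Mouse 92 was highest and mouse 106 lowest.

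The scaffolds of the destruction complex were also well above background. Apc (10454655), the large scaffold that gathers beta-catenin for phosphorylation, read 9.47, 9.29 and 9.42 in mice 92, 103 and 106 (9.39 ± 0.09, SD, n = 3). Axin1 (10442954), the scaffold that holds the kinases, read 9.41, 9.18 and 9.30 (9.30 ± 0.12, SD, n = 3). For both genes mouse 92 was highest and mouse 103 lowest, and 0 receptor genes read higher on any array. Axin2 (10382228), the inducible relative of Axin1 and a feedback inhibitor of the pathway, read 7.98, 7.90 and 7.95 (7.94 ± 0.04, SD, n = 3). Its 3 arrays spanned 0.08, or 1.06-fold, and 2 to 3 receptor genes read higher.

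The SOX genes differed from each other in the order of the mice. Sox4 (10408450), a factor needed for normal lymphocyte development in the mouse, read 11.09, 10.92 and 10.99 in mice 92, 103 and 106 (11.00 ± 0.08, SD, n = 3). Mouse 92 was its highest array. Sox13 (10357790), known in the mouse thymus from gamma-delta T cells, read 7.32, 7.58 and 7.51 (7.47 ± 0.13, SD, n = 3), and 3 to 4 receptor genes read higher. Sox13 was lowest in mouse 92, under the deposited scale and under all 3 other scalings tried. The 9 measured gamma-delta T cell markers averaged 6.54, 6.86 and 6.80 in mice 92, 103 and 106; 8 of them were lowest in mouse 92, and 6 were above background, without Il23r, Il17a and Ccr6. Of all tested genes, 35.1% were lowest in mouse 92. So were 11 of 12 early progenitor genes, all 9 B cell genes, all 11 neutrophil genes and 14 of 19 Wnt ligand genes. The low reading there is thus shared by many lists. Wnt ligand genes deviated there by -0.09 on average, where all tested genes with means between 6 and 7 had a median deviation of -0.07. The part of any of these cell types in the Sox13 values was not tested.

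None of the 9 genes passed the test for a spread over the mice beyond that of genes at a similar level. In limma, which set each gene's variance against the trend of 13308 genes above background on any array, 0 of the 9 passed an adjusted p of 0.05, and 30 of all genes, 0.225%, did. At an unadjusted p under 0.05 the count was also 0 of 9, against 4.84% of all genes. The robust form of the same limma fit gave 0 at either threshold too. Ctnnb1 came closest, with a variance 1.20 times that of the trend (unadjusted p = 0.339, adjusted p = 0.9955, limma). The adjusted p-values of the others lay between 0.9955 and 0.9999 (limma). Without mouse 92, limma again called 0 of the 9 genes (smallest adjusted p = 0.9982). With 3 mice these p-values do not show that the levels were equal.

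In size, the SDs of the 9 genes ran up to 0.15, with a median of 0.08, where the median of all tested genes was 0.13. For 8 of the 9 genes the SD was below that median, Ctnnb1 being the exception at the 58.2nd percentile. That count depends on the scaling: it was 6 of 9 after quantile normalization and 7 of 9 after cyclic loess. After median centring, on the median of the probe sets with a single symbol, it was 3 of 9. There the 9 genes had a median SD of 0.14 and all tested genes 0.14. Axin2 stood at percentile 7.26, Tcf7l1 at 19.3, Tcf7l2 at 20.5, Sox4 at 24.1, Apc at 29.8, Axin1 at 41.8 and Sox13 at 48.7. Lef1 had the smallest SD of all 13308 tested genes on the deposited scale. That rank belonged to the scaling. The Lef1 SD was 0.06 after quantile normalization (percentile 13.9), 0.07 after median centring (16.4) and 0.06 after cyclic loess (14.6). Likewise the percentile of Tcf7l1 moved to 64.5 after quantile normalization and that of Sox4 to 3.63.

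**Figure D2:**
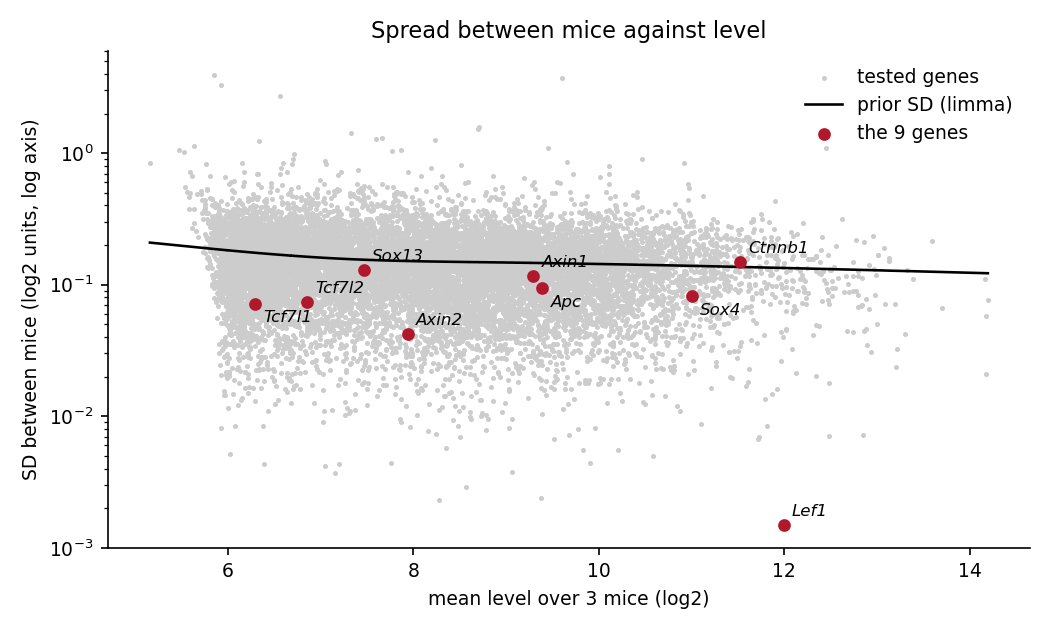
SD between the 3 mice (log2 units, log axis) against mean log2 level, for 13308 tested genes (grey), the 9 genes (red) and the prior SD of limma (line). Ctnnb1 lies just above the line, the others below it, and Lef1 lies at the bottom with an SD of 0.0015.

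No gene passed the test, and the order of the mice is given as a description. On the array of mouse 92, 7 of the 9 genes had their highest level, where 37.4% of all tested genes did. Mouse 103 was lowest for 7 of 9, where 28.3% of all tested genes were, and mouse 92 was lowest for Sox13 alone, where 35.1% were. Lef1 is among the 7 lowest in mouse 103, though it read 11.9914 in both mice 92 and 103. Tcf7l2 is among the 7 highest in mouse 92, at 6.898 against 6.897 in mouse 106. Under all 4 scalings, the deposited one included, 5 genes stayed highest in mouse 92 (Tcf7l1, Tcf7l2, Ctnnb1, Axin1 and Sox4) and 6 stayed lowest in mouse 103 (Tcf7l1, Tcf7l2, Apc, Axin1, Axin2 and Sox4). After quantile normalization mouse 92 was highest for 5 of the 9 genes and 34.8% of all tested genes. After cyclic loess it was highest for 6 and 35.3%, and after median centring for 8 and 53%. Mouse 103 was lowest for 6 genes and 31.4% of all after quantile normalization, for 6 and 32.1% after cyclic loess, and for 7 and 48.6% after median centring. On the deposited scale, 9 of 11 thymocyte markers and 13 of 19 destruction complex partners were also highest in mouse 92. Other lists went the opposite way: all 11 neutrophil, 9 B cell and 5 erythroid markers were lowest there. The order also moved with level on these arrays. Among all tested genes with means between 9 and 10, the median deviation was 0.06 in mouse 92, -0.03 in mouse 103 and -0.03 in mouse 106. Between 6 and 7 it was -0.07, 0.09 and -0.02. Apc and Axin1 deviated in mouse 92 by 0.08 and 0.12, in the direction of genes of like level. Tcf7l1 and Tcf7l2 deviated by 0.07 and 0.04 in mouse 92 and by -0.08 and -0.09 in mouse 103, opposite to the genes of like level. The part of the array scale in the order was not tested beyond the scalings named, and none of these genes passed the limma test. The place of mouse 92 in the order also cannot be told apart from its sex as read from Xist.

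**Figure D3:**
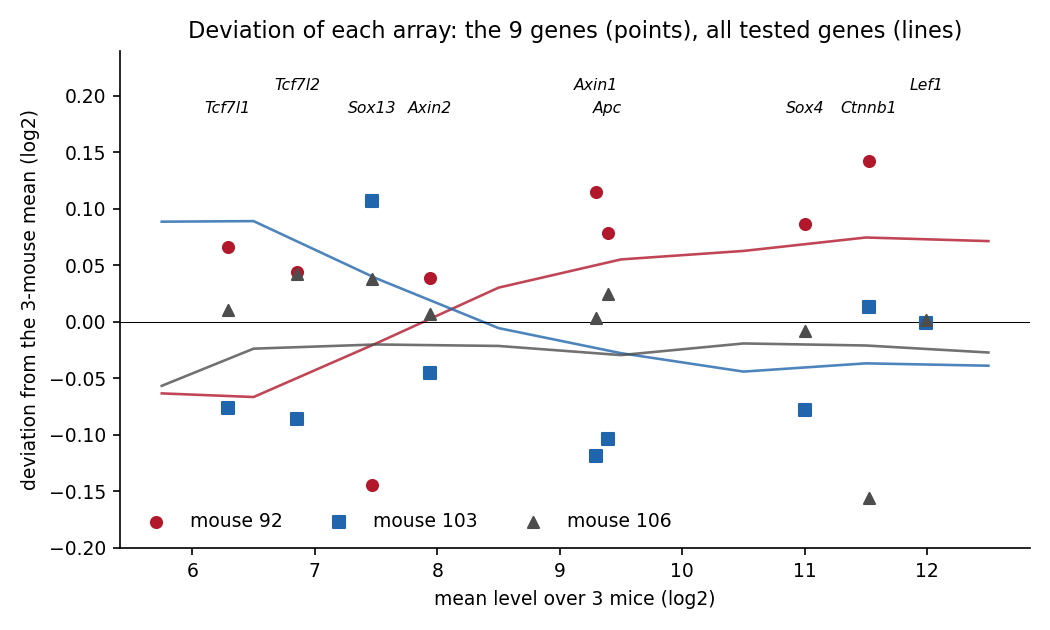
Deviation of each array from the 3-mouse mean (log2) against mean log2 level: points are the 9 genes, lines the medians of all tested genes in steps of level, for mice 92 (red), 103 (blue) and 106 (grey). In mouse 92 most points lie above 0, with Sox13 at -0.14 and Lef1 near 0.

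Genes that work with these 9 were taken from lists of the pathway. Of 19 measured partners of the destruction complex, 18 were above background, all but Apc2, against 61.7% of all genes. The kinase genes Gsk3a, Gsk3b and Csnk1a1, which phosphorylate beta-catenin, averaged 10.64 ± 0.14, 10.31 ± 0.17 and 11.78 ± 0.20 (SD, n = 3), and the ubiquitin ligase genes Btrc and Fbxw11 8.60 ± 0.06 and 9.25 ± 0.13 (SD, n = 3). Of 18 coactivators and corepressors, 17 were above background, all but Pygo1, which encodes a partner of the BCL9 coactivators. Among 6 relatives of TCF factors and catenins, Jup (gamma-catenin, 8.69 ± 0.04), Ctnna1 (alpha-catenin, 9.11 ± 0.04), the beta-catenin inhibitor genes Ctnnbip1 (7.37 ± 0.12) and Cby1 (9.04 ± 0.02), and Ctnnbl1 (9.72 ± 0.07; SD, n = 3) passed, and Ctnnd1, which encodes p120-catenin, did not.

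For the outer parts of the pathway the shares were nearer to that of all genes. Wnt ligand genes were above background in 13 of 19 cases (68.4%), receptors, R-spondins and Dishevelled genes in 14 of 25 (56%) and secreted or membrane inhibitors in 11 of 21 (52.4%). These shares are close to the 61.7% of all genes, so a pass does not show that a ligand or inhibitor was made. The 99th percentile of the receptor genes, which 46.7% of all genes passed, gave a smaller share for each of these lists. Above it on all 3 arrays were only Wnt4, Wnt5b and Wnt6 among the ligands. The inhibitors above it were Kremen1, Znrf3 and Nkd1. From the list with the receptors, Lrp5, Lrp6, Dvl1, Dvl2, Dvl3 and Rspo1 were above it. The Wnt co-receptor gene Lrp6 averaged 9.39 ± 0.19 (SD, n = 3), with 9.52 in mouse 92, 9.17 in mouse 103 and 9.49 in mouse 106. Wnt5b, a ligand gene, averaged 7.82 ± 0.22 (SD, n = 3). Among 17 other SOX genes 11 passed (64.7%), which is also close to the share of all genes. Only Sox1 and Sox3 of them were above the 99th percentile on all 3 arrays. A pass of a SOX gene therefore does not show by itself that it was expressed. The widest spread among the 11 SOX genes that passed was that of Sox18, an endothelial factor, at 6.84 ± 0.23 (SD, n = 3).

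Of 14 measured genes known as beta-catenin targets in other tissues, 10 were above background (71.4%, against 61.7% of all genes). With so few genes this count does not show that the targets were switched on. Myc read 9.15, 9.43 and 9.44 in mice 92, 103 and 106 (9.34 ± 0.17, SD, n = 3), and Ccnd1, which encodes cyclin D1, read 6.95, 6.70 and 6.82 (6.82 ± 0.13, SD, n = 3). Myc was lowest and Ccnd1 highest in mouse 92. Ccnd1 lay below the 99th percentile of the receptor genes in mice 103 (7.00) and 106 (6.85). Notum, Sp5, Lgr5 and Fosl1 were not above background. Across all the pathway lists, 84 of 116 genes were above background (72.4%, against 61.7% of all genes). Of these lists limma called 0 of the 91 tested genes as varying, with 3 at an unadjusted p under 0.05. The share at that threshold among all tested genes was 4.84%. The median SD of the pathway genes was 0.13, as for all tested genes.

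**Figure D4:**
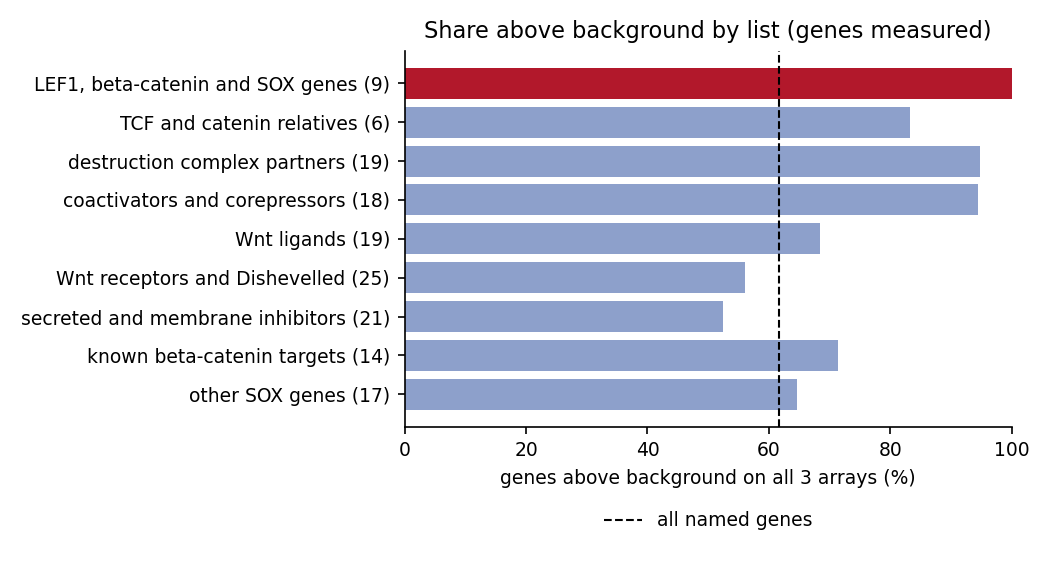
Percentage of measured genes above background on all 3 arrays, for the 9 genes (red) and for each pathway or family list (blue; number measured in brackets). The dashed line marks the 61.7% of all named genes; destruction complex partners and coregulators lie furthest above it after the 9 genes, and secreted and membrane inhibitors lie below it at 52.4%.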

How the data were processed

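Trizol RNA of 3 samples was labelled with biotin and hybridised to MoGene 1.0 ST arrays, per the labels. The deposited table holds log2 values for 35557 probe sets, made with Affymetrix Expression Console per the submitters' processing notes; the log2 scale was inferred from their range, while background correction, summarisation and normalization are not stated in any source used. The arrays may have been normalized together with others.

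Of the probe sets, 21789 had a single symbol, 1621 several (not named) and 12147 were not listed. Probe sets of a gene were averaged (999 genes had more than 1, none of them among the 9). All 9 symbols matched the RefSeq gene table.

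The spread over mice was examined in limma 3.58.1 (R 4.3.3). An intercept-only fit of 13308 genes above background on any array gave, through eBayes, a prior variance with a trend on level that was not robust (10.3 degrees of freedom). The ratio of each variance to this prior was compared with the upper tail of the F distribution, with Benjamini-Hochberg adjustment. The robust prior was an alternative, because its degrees of freedom had been chosen with results in view. Tried on simulated data, the test recovered only shifts in 1 mouse that were far larger than the ranges of these 9 genes, so a gene that did not pass may still differ between mice. Nothing says how the samples were taken beyond the mouse numbers, so the p-values cover only the spread of these samples, which may be technical, and precision is limited by the number of arrays. Alternatives were the background percentile, the filter, quantile, median and cyclic loess scaling, the choice of probe set and leaving out each mouse.

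The 9 genes and all lists were chosen with earlier results of these data known. From the lists, genes were named if they were called, if 5 or fewer passed or failed background, if their SD was among the 3 largest, or if they were fixed partners or targets. Of 229 symbols on the lists, 219 were measured; the others are not reported here.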

Additional observations from a re-analysis of the deposited data

How the results depend on the processing

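All 9 genes stayed above background after quantile normalization and after cyclic loess. With the stricter cut at the 99th percentile, Tcf7l1 and Tcf7l2 fell below it, which left 7. Other repeats could not lower the count of 9. Each gene has 1 probe set, median centring moves gene and threshold together, and leaving out a mouse only drops a condition. Filter and prior do not enter the background call. None of the 9 genes passed the limma test under any scaling, filter, prior or probe set choice, or with any mouse left out. Over these alternatives their adjusted p-values in limma lay between 0.9859 and 0.9999 (90 tests). On simulated data the test recovered 0 of 200 genes shifted by 1 log2 unit in 1 mouse. The ranges of the 9 genes were 0.30 or less, so these repeats do not show that their levels were equal. The count of all genes that varied, 30, was 13 after quantile normalization, 15 after median centring and 16 after cyclic loess. It was 51 to 84 with a mouse left out: 58 without mouse 92, 51 without mouse 103 and 84 without mouse 106. The cause was not tested. It was 44 with the robust prior, 25 with no filter and 22 with the strict filter. The count of pathway genes above background, 84, was 84 to 85 with a mouse left out. The mean level moved by more than its SD only for Lef1, after quantile normalization and after cyclic loess, to 11.988 and 11.9858, against 11.9923 ± 0.0015 (SD, n = 3) as deposited. No paired analysis was possible because the labels give 1 group. Tcf7l1, within 0.11 of the threshold in mouse 103, is the gene that signal over background limits most.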

Other observations

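In the pathway lists, 3 genes had an unadjusted p under 0.05 in limma, of 91 tested, and none passed after adjustment. Among all tested genes, 4.84% had such a p. They are named because of these values, which were seen first. Jun, an AP-1 factor gene that responds to stress and growth signals, read 6.88, 7.33 and 6.35 in mice 92, 103 and 106 (limma, unadjusted p = 0.00538). The corepressor gene Tle1, whose protein binds TCF/LEF factors, read 7.34, 6.59 and 6.92 (limma, unadjusted p = 0.0249), highest in mouse 92. Apcdd1, which encodes a membrane inhibitor of Wnt signalling, read 6.43, 7.09 and 6.86 (limma, unadjusted p = 0.0486), lowest in mouse 92. All 3 genes were above background, but the lowest reading of each lay below the 99th percentile of the receptor genes on its array. That percentile was 6.85 in mouse 106 for Jun, 7.00 in mouse 103 for Tle1 and 6.69 in mouse 92 for Apcdd1.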
